A study of Homo sapiens with 6 samples.

Results

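The E2F transcription factors E2F1 to E2F8 and their dimerisation partners TFDP1 and TFDP2 (the DP proteins) were examined in 5637, an established human bladder cancer cell line grown in RPMI 1640 with serum. The rows were found by matching the Ensembl identifiers of the deposited count table to these 10 symbols. All 10 genes were present among the 61860 of the table, and all 10 passed the filter on low counts that left 17372 genes for testing. RNA was sequenced from 3 libraries labelled siNC (the control) and 3 labelled siYTHDC1, taken here to mean silencing of YTHDC1, a nuclear reader of the N6-methyladenosine mark on RNA. Cells of both groups are described as transfected or infected and a plasmid is mentioned as well, so the reagent is not clear, and no time after treatment is given.

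E2F proteins bind promoters of genes needed for DNA replication and cell division. E2F1, E2F2 and E2F3 are the activators, which the retinoblastoma protein RB holds inactive until cyclin-dependent kinases phosphorylate it. E2F4 and E2F5 bind mainly the RB relatives p107 and p130 and repress the same promoters in resting and early G1 cells, E2F6 represses through Polycomb proteins, and the atypical E2F7 and E2F8 repress without a DP partner. Activity of this pathway is commonly raised in bladder cancer, where the E2F3 locus on the short arm of chromosome 6 is a recurrent site of amplification, and 5637 is widely used as a line without functional RB.

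Total counts ran from 33223480 to 35607577 per library, and the 10 genes together took 0.117% to 0.129% of them. Libraries within each group differed by more than counting noise, so none was treated as a repeat of another. All 10 epithelial and urothelial markers examined were above 1 CPM (counts scaled by library size with edgeR's TMM factors), but their sum, mostly keratins, was 11710 to 11880 CPM under siNC and 6624 to 6745 CPM under siYTHDC1. The list did not move as a whole. By the rule given below, every keratin in it and GATA3 (log2 fold change -0.42) fell. EPCAM (0.14) and TP63 (0.17) rose, and CDH1 (-0.01) was not called. Of 6 fibroblast markers DCN was at 0 in every library, and the sum, nearly all COL1A1, was 78.9 to 84.9 against 92.3 to 97.1 CPM. Of 5 immune markers 3, CD3E and MS4A1 among them, were at 0 in every library (sum 6.59 to 8.03 against 4.71 to 6.50 CPM, mostly CD14), and the 4 endothelial markers summed to 5.52 to 7.79 against 6.00 to 7.51 CPM. The part of these shifts in the results for the E2F family was not tested. The YTHDC1 row itself did not separate the groups: siNC replicates 1, 2 and 3 held 50, 786 and 55 reads of it, and siYTHDC1 replicates 1, 2 and 3 held 161, 18 and 14. Its log2 fold change was -2.20 with an SE of 0.69 (edgeR adjusted p = 0.00864), and 0.31 when siNC replicate 2 was left out (edgeR adjusted p = 0.691). The groups are therefore named by their labels, and each E2F and DP result was also computed without siNC replicate 2 and siYTHDC1 replicate 1, whose YTHDC1 counts stand apart.

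Of the 10 genes, 5 fell and 3 rose in the libraries labelled siYTHDC1, and E2F2 and E2F6 were not called. E2F1 and E2F3 of the activators, E2F4 and E2F5 of the repressors and TFDP2 fell, whereas the atypical E2F7 and E2F8 and the partner TFDP1 rose. A gene was called when its edgeR p-value, adjusted over all 17372 genes tested, was under 0.05. By that rule 53.4% of all genes tested were called, 27.1% lower and 26.3% higher, so the 80% called among these 10 genes stands beside a high background, and no test sets the family apart from it. In 8 of the 10 genes the CPM values of the groups did not overlap, a pattern seen in 59.3% of all genes tested. In these bulk libraries a different share of cells in a cell cycle phase and a different amount of transcript per cell cannot be told apart.

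**Figure D1:**
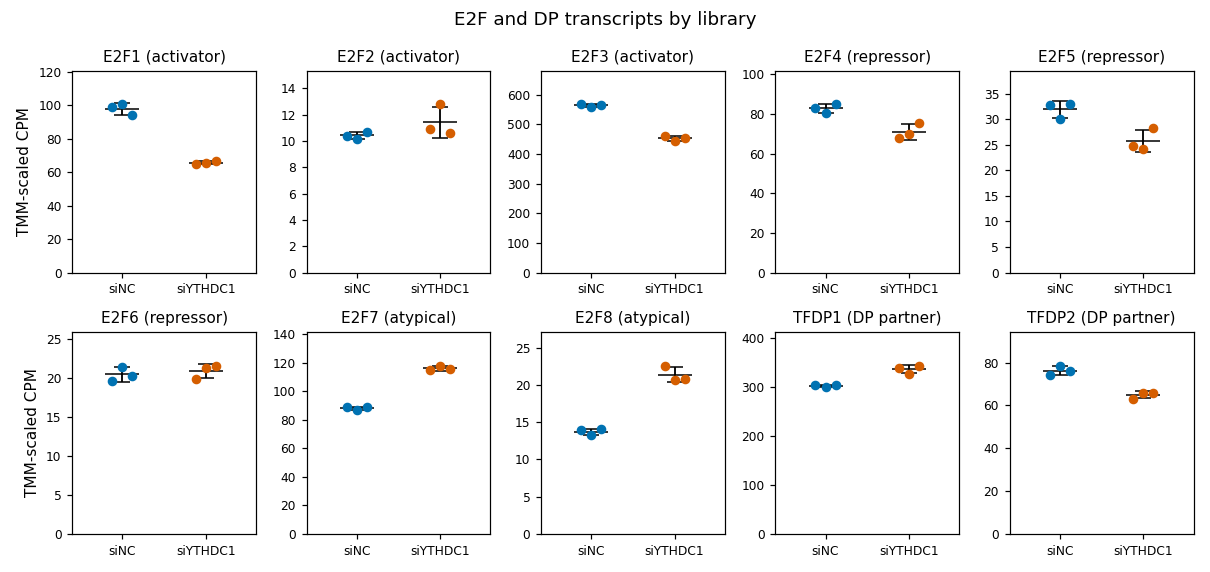
TMM-scaled CPM of the 10 E2F and DP genes in the 3 siNC libraries (blue) and the 3 siYTHDC1 libraries (orange), with the mean and SD in black; each panel has its own axis from 0. The groups are apart in every panel except those of E2F2 and E2F6.

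Per kilobase of exon, E2F3 was the most abundant of the family in the siNC libraries and TFDP1 followed. The length-corrected level of E2F3 was 109 ± 0.835 CPM per kb and that of TFDP1 81.1 ± 0.547 CPM per kb (SD, n = 3 per group). E2F1 came next with 39.1 ± 1.39 CPM per kb, then E2F4 with 23.1 ± 0.617 and E2F7 with 14.0 ± 0.175 CPM per kb. TFDP2 (6.41 ± 0.185), E2F5 (5.39 ± 0.273), E2F6 (5.02 ± 0.229), E2F8 (3.31 ± 0.101) and E2F2 (1.91 ± 0.046) formed the lower end of the levels per kb. E2F5 and E2F6 overlapped in the siNC libraries, while every other pair of neighbours in that order was apart in all 3 libraries.

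In the siYTHDC1 libraries the length-corrected order changed at the top and near the bottom. TFDP1 stood at 90.0 ± 2.34 CPM per kb and E2F3 at 87.7 ± 1.66 CPM per kb (SD, n = 3 per group), and their values overlapped. E2F8 moved from the ninth to the seventh place with 5.16 ± 0.253 CPM per kb, a level that overlapped those of TFDP2 and E2F6, and E2F5 was ninth with 4.34 ± 0.366 CPM per kb. As a share of the summed length-corrected level of the family, E2F1 went from 13.5% ± 0.50 to 9.92% ± 0.114, E2F3 from 37.9% ± 0.131 to 33.2% ± 0.445, and TFDP1 from 28.1% ± 0.15 to 34.1% ± 0.326 (SD, n = 3 per group). E2F7 and E2F8 together remained a minor part, E2F7 going from 4.84% ± 0.041 to 6.97% ± 0.212 and E2F8 from 1.15% ± 0.0309 to 1.95% ± 0.0972. The lengths are those of all annotated exons joined, so the place of a gene with many annotated transcripts, such as TFDP2 with 11.897 kb of exon, depends strongly on that length.

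**Figure D2:**
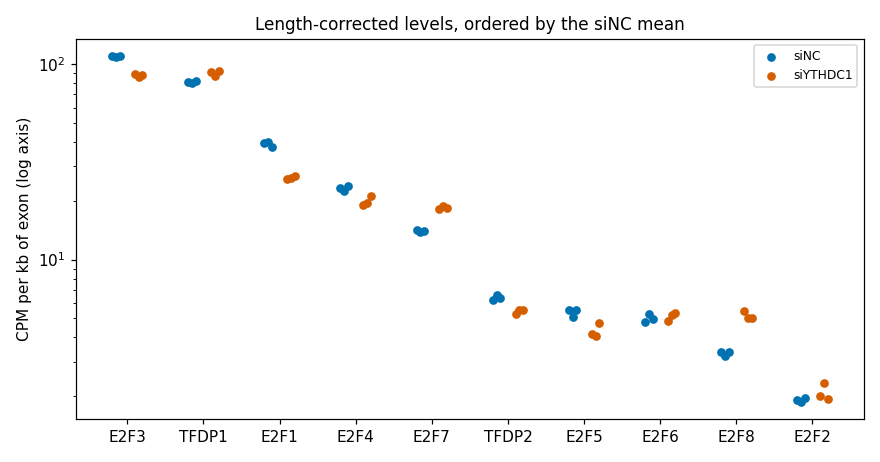
Level of each E2F and DP gene as CPM per kb of joined exon length on a log axis, 1 point per library, siNC in blue and siYTHDC1 in orange, ordered by the siNC mean. E2F3 and TFDP1 lie well above the rest, and their order is clear in siNC but not in siYTHDC1.

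Several E2F genes are known to be E2F targets themselves, so sequences before start sites are shown. They are those of 4 genes that hold an E2F word and of E2F7, whose window held none of the words searched. The words searched were TTTCCCGC, TTTCGCGC, TTTGCCGC and TTTGGCGC on both strands, and a window ran from 250 bases before to 50 bases after a RefSeq start site on GRCh38.p14. At least 1 word was present in 3.31% of all 35116 windows and in 4 of the 11 windows of the family. In the list of E2F targets used below, 16 of 28 genes held a word in any of their windows. That count is per gene, and no background per gene was computed. E2F1 held words 20 and 33 bases before its start, E2F2 had its word 42 bases before, E2F3 53 bases before and TFDP1 120 bases before. The windows of E2F4, E2F6, E2F7 and TFDP2 and the second window of E2F3 held none of these exact words. The search covered no other form of an E2F site, so a window without a word is not shown to lack one. The matches do not overlap each other, and E2F5 and E2F8 had no window. Each stretch below runs 5′ to 3′ from 120 to 6 bases before the start, with the words in capitals, at chr20:33686391-33686505 (minus strand) for E2F1, chr1:23531239-23531353 (minus) for E2F2, chr6:20401759-20401873 (plus) for E2F3, chr13:113584633-113584747 (plus) for TFDP1 and chr12:77065575-77065689 (minus) for E2F7.
E2F1: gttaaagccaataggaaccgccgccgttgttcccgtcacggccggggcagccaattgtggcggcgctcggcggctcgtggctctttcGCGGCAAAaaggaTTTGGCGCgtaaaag
E2F2: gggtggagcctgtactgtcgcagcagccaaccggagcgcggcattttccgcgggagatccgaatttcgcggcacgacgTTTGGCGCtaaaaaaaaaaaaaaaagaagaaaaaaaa
E2F3: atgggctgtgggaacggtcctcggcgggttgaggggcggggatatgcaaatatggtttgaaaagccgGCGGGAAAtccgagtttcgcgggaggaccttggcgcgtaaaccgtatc
TFDP1: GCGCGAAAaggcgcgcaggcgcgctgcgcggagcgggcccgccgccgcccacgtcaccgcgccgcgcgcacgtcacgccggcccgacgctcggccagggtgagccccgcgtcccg
E2F7: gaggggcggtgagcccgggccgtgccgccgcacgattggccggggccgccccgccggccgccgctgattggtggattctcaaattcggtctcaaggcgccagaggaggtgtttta

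The 4 genes with a word did not move together: E2F1 and E2F3 fell, TFDP1 rose and E2F2 was not called.

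Among the activators, E2F1 showed the largest fall of the family. E2F1 (ENSG00000101412, chr20:33675683-33686404, minus strand, 7 exons) encodes the activator best known for driving entry into S phase. Its reads numbered 3513, 3461 and 3251 under siNC and 2268, 2171 and 2285 under siYTHDC1, replicates 1 to 3 in order here and for each gene below. Every siYTHDC1 library lay below every siNC library, and the siYTHDC1 values were close together. The level went from 97.9 ± 3.47 to 65.6 ± 1.00 CPM (SD, n = 3 per group), or 1.49-fold lower. On the log2 scale the change was -0.58 with an SE of 0.04 (edgeR adjusted p = 9.51e-12). Of all called genes in the comparison, 66% changed by less than E2F1.

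E2F3 (ENSG00000112242, chr6:20401906-20493715, plus strand, up to 7 exons), which encodes a long and a short isoform that gene counts do not separate, had by far the most counts of the E2F genes. Its counts were 20105, 19280 and 19598 under siNC and 16076, 14773 and 15579 under siYTHDC1, without overlap. The level went from 564 ± 4.31 to 453 ± 8.59 CPM (SD, n = 3 per group), which is -0.32 ± 0.03 (SE) in log2 units (edgeR adjusted p = 3.77e-11). In absolute terms this was the largest loss of E2F transcript in the family. Of its protein-coding neighbours within 1 Mb, CDKAL1 was not called (log2 fold change -0.09 ± 0.04), MBOAT1, an acyltransferase gene, fell by 0.67, and the sparse ID4, which encodes an inhibitor of helix-loop-helix factors, rose by 1.08 ± 0.29.

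E2F2 (ENSG00000007968, chr1:23506430-23531220, minus strand, up to 7 exons) was the scarcest E2F per kb. It had 369, 351 and 370 reads under siNC and 382, 426 and 363 under siYTHDC1. The groups overlapped, since siYTHDC1 replicate 3 lay within the siNC range of CPM and only siYTHDC1 replicate 2 stood clearly above it. In the edgeR fit its log2 difference was 0.13 ± 0.10 (SE; adjusted p = 0.293), with a 95% interval from -0.08 to 0.35. That interval lies wholly above the falls of E2F1 and E2F3.

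Of the repressors, E2F4 and E2F5 fell and E2F6 was not called. E2F4 (ENSG00000205250, chr16:67192169-67198918, plus strand, up to 10 exons), the main E2F of the repressive DREAM complex, had 2948, 2772 and 2936 reads under siNC and 2370, 2320 and 2589 under siYTHDC1. The groups did not overlap, although siYTHDC1 replicate 3 came nearest to the siNC libraries. E2F4 went from 82.8 ± 2.21 to 71.0 ± 4.09 CPM (SD, n = 3 per group), which is -0.22 ± 0.05 (SE) in log2 units (edgeR adjusted p = 2.46e-04).

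E2F5 (ENSG00000133740, chr8:85177225-85217158, plus strand, up to 8 exons), the closest relative of E2F4, had 1162, 1036 and 1140 reads under siNC and 866, 807 and 966 under siYTHDC1. The groups were again apart, with siYTHDC1 replicate 3 nearest to siNC. Its level went from 31.9 ± 1.62 to 25.7 ± 2.17 CPM (SD, n = 3 per group), which is -0.31 ± 0.07 (SE) in log2 units (edgeR adjusted p = 7.47e-04). Genes on the other strand have exons over 18.6% of it, which matters only if the counting ignored strand, and the sources used here do not give the strand setting.

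E2F6 (ENSG00000169016, chr2:11444375-11466177, minus strand, up to 9 exons) had 695, 739 and 700 reads under siNC and 692, 708 and 738 under siYTHDC1. The libraries of both groups were interleaved, at 20.4 ± 0.930 and 20.9 ± 0.937 CPM (SD, n = 3 per group). Its log2 difference in the edgeR fit was 0.03 ± 0.08 (SE; adjusted p = 0.767), with a 95% interval from -0.13 to 0.19. Other genes, mainly the pseudogene E2F6P1, share 9.61% of its 75-base words, and the rows of E2F6P1 to E2F6P4 held at most 1 count in any library.

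The atypical members both rose, and E2F8 had the largest change of the family. E2F8 (ENSG00000129173, chr11:19224063-19241620, minus strand, up to 13 exons) had 492, 456 and 485 reads under siNC and 789, 690 and 713 under siYTHDC1. All siYTHDC1 libraries lay well above all siNC libraries. The level went from 13.7 ± 0.418 to 21.4 ± 1.05 CPM (SD, n = 3 per group), 1.56-fold higher (log2 fold change 0.64 ± 0.08, SE; edgeR adjusted p = 2.20e-07).

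E2F7 (ENSG00000165891, chr12:77021247-77065580, minus strand, up to 13 exons), which like E2F8 carries duplicated DNA-binding domains and restrains E2F1 targets, was the more abundant of the pair. It had 3147, 2993 and 3070 reads under siNC and 4017, 3931 and 3947 under siYTHDC1. The replicates of each group were tight and the groups far apart. E2F7 went from 88.1 ± 1.10 to 116 ± 1.65 CPM (SD, n = 3 per group), 1.32-fold higher (log2 fold change 0.40 ± 0.04, SE; edgeR adjusted p = 1.45e-09).

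The DP partners moved in opposite directions. TFDP1 (ENSG00000198176, chr13:113584721-113641470, plus strand, up to 12 exons), which encodes DP1, the usual partner of E2F1 to E2F6, had 10750, 10382 and 10572 reads under siNC and 11849, 10897 and 11775 under siYTHDC1. The groups did not overlap after scaling, with siYTHDC1 replicate 2 nearest to siNC. The level went from 303 ± 2.05 to 337 ± 8.74 CPM (SD, n = 3 per group), which is 0.15 ± 0.03 (SE) in log2 units (edgeR adjusted p = 7.78e-05). This was the smallest called change of the family, and only 6.4% of all called genes changed by less.

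TFDP2 (ENSG00000114126, chr3:141944428-142149544, minus strand, up to 14 exons), which encodes DP2, had 2629, 2708 and 2626 reads under siNC and 2201, 2191 and 2258 under siYTHDC1. The groups were apart in all libraries. Its level went from 76.2 ± 2.21 to 64.9 ± 1.66 CPM (SD, n = 3 per group), which is -0.23 ± 0.05 (SE) in log2 units (edgeR adjusted p = 1.05e-04).

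**Figure D3:**
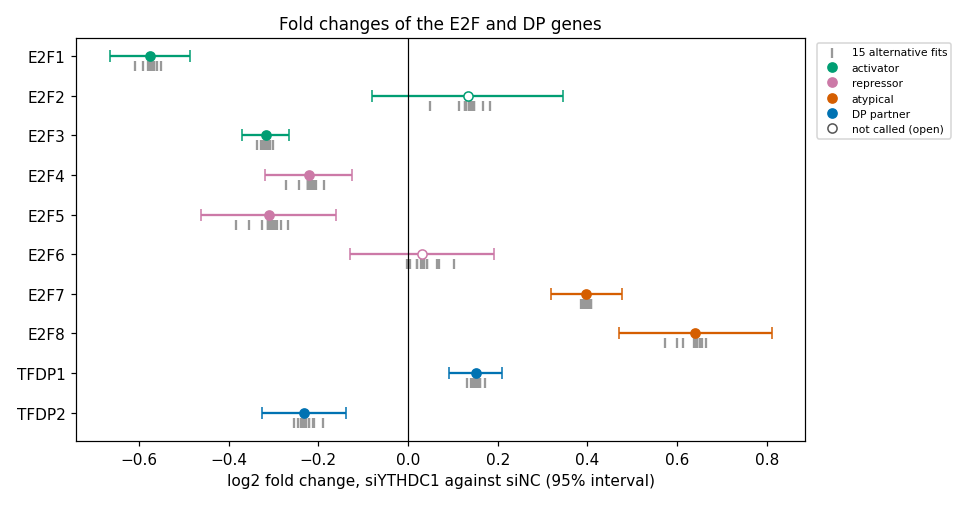
Log2 fold changes of the 10 genes with 95% intervals from the edgeR fit (filled circles, called; open circles, not called), coloured by class; the grey ticks below each are the values of 15 alternative fits. E2F1 lies lowest and E2F8 highest, and only the intervals of E2F2 and E2F6 span 0.

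Each of the 8 calls held in all 15 alternative fits, and E2F2 and E2F6 were called in 0 of the 15. Without siNC replicate 2 and siYTHDC1 replicate 1, the log2 fold changes were -0.55 for E2F1, -0.34 for E2F3, -0.21 for E2F4, -0.33 for E2F5, 0.39 for E2F7, 0.57 for E2F8, 0.14 for TFDP1 and -0.19 for TFDP2, and each was still called.

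Ratios within a library do not depend on scaling, and 8 ratios between members were computed, chosen after the fold changes were seen. They use raw counts with no length correction, so only their shift between groups can be read. For every E2F7 count there were 1.12, 1.16 and 1.06 E2F1 counts in the siNC libraries, against 0.565, 0.552 and 0.579 in the siYTHDC1 libraries. The mean of this activator-to-atypical ratio went from 1.11 ± 0.049 to 0.565 ± 0.0133 (SD, n = 3 per group), and all siYTHDC1 values lay below all siNC values. The ratio of E2F1 to E2F8 went from 7.14 ± 0.443 to 3.08 ± 0.176, and that of E2F3 to E2F7 from 6.41 ± 0.0322 to 3.90 ± 0.128. TFDP1 to TFDP2 went from 3.98 ± 0.133 to 5.19 ± 0.206. The groups did not overlap in any of the 8 ratios, and no share over other pairs of genes was computed. Among them the ratio of E2F4 to E2F5 shifted least, from 2.60 ± 0.0716 to 2.76 ± 0.10. Its groups nearly met, at 2.676 in siNC replicate 2 and 2.68 in siYTHDC1 replicate 3. An exact 2-sided permutation test gave p = 0.1 for each of the 8, which is the smallest value that 3 against 3 libraries allow. Where a ratio sets a gene that fell against a gene that rose, its separation follows from those changes. All 8 ratios, also those of genes that moved the same way, reuse the counts given above. They describe the size of the shift and add no separate evidence for it.

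**Figure D4:**
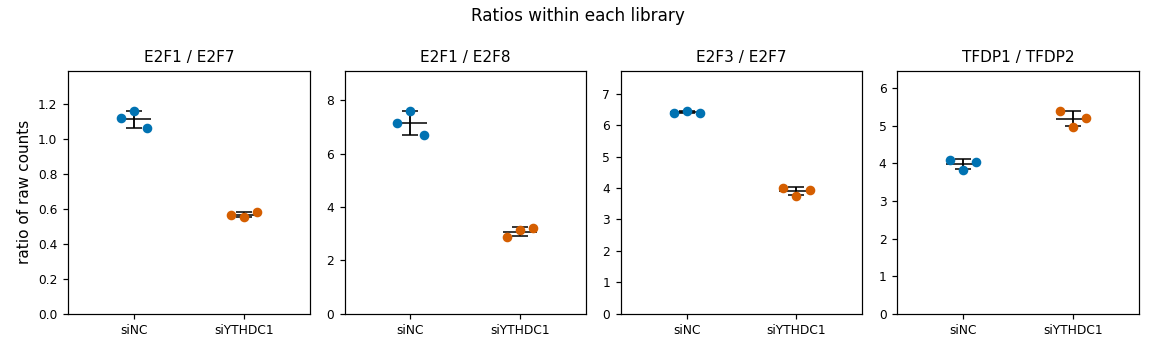
Ratios of raw counts between members of the family within each library (points), with mean and SD in black, siNC in blue and siYTHDC1 in orange. The ratios of activators to atypical E2Fs are lower and the TFDP1 to TFDP2 ratio is higher in all 3 siYTHDC1 libraries.

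Other rows with E2F or TFDP names were close to empty. Of 13 such rows, which include pseudogenes, an intronic transcript of E2F3, a divergent transcript and TFDP3, 6 had 0 counts in all libraries. TFDP1P2, a pseudogene row, was the only one to pass the filter, with 58, 60 and 54 reads under siNC and 57, 32 and 25 under siYTHDC1 (log2 fold change -0.57 ± 0.32, SE; edgeR adjusted p = 0.145). No other of these rows had more than 10 counts in a library, and TFDP1 shares 0.735% of its 75-base words with other genes.

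Among the pocket proteins, which bind and restrain E2Fs, RBL2 and RBL1 rose and RB1 fell, where 53.4% of all genes tested were called in either direction. RBL2, which encodes p130, had 2175, 2117 and 2168 reads under siNC and 2872, 2613 and 2736 under siYTHDC1 (61.8 ± 0.694 to 80.2 ± 1.90 CPM, SD, n = 3 per group), which is 0.38 ± 0.04 (SE) in log2 units (edgeR adjusted p = 5.6e-08). RBL1, which encodes p107, rose by 0.22 ± 0.07 on the log2 scale (edgeR adjusted p = 0.0107), but its groups overlapped and the call was lost in 3 of 15 alternative fits, the highest adjusted p being 0.0732 without siNC replicate 1. RB1, in a line widely used as one without functional RB, was low, at 5.30 CPM under siNC and 4.04 CPM under siYTHDC1. It had 208, 164 and 182 reads under siNC and 126, 130 and 158 under siYTHDC1. Its fall of 0.39 on the log2 scale (edgeR adjusted p = 0.0482) was called in only 3 of the 15 alternative fits, with adjusted p up to 0.177 without siNC replicate 1. Exons of neighbouring genes on the other strand cover 18.2% of RBL2.

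Of 8 genes of the MuvB core and its MYB and FOXM1 partners, 1 rose and 1 fell (median log2 fold change 0.00). That is 25% called, beside 53.4% of all genes tested (26.3% higher and 27.1% lower), a difference that was not tested. MYBL2, the B-MYB gene and a known E2F target, rose from 315 ± 9.49 to 450 ± 13.6 CPM (SD, n = 3 per group), which is 0.51 ± 0.03 (SE) in log2 units (edgeR adjusted p = 4.36e-14). The histone-binding subunit gene RBBP4 fell by 0.16. The uncalled log2 fold changes were 0.09 for LIN9, -0.14 for LIN52, 0.19 for LIN54, 0.13 for MYBL1, -0.09 for FOXM1 and -0.40 for the sparse LIN37, of which exons of other genes cover 54.0% (18.0% for RBBP4). LIN54 lay at the threshold (edgeR adjusted p = 0.0509) and passed in 8 of the 15 alternative fits.

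The list of G1 cyclins, their kinases, the kinase inhibitors and CDC25A moved in both directions. Of its 15 tested members 4 rose and 7 fell (median log2 fold change -0.08). The share called was 73.3%, beside 53.4% of all genes tested, of which 26.3% rose and 27.1% fell, and the list was not tested against them. CDKN1A, which encodes the CDK inhibitor p21, fell from 412 ± 4.47 to 237 ± 8.31 CPM (SD, n = 3 per group; log2 fold change -0.80 ± 0.03, SE). The cyclin E genes CCNE2 and CCNE1 fell by 0.73 and 0.48 on the log2 scale, and the CDK inhibitor gene CDKN1C by 0.49, with overlapping groups and a highest adjusted p of 0.0953 with DESeq2. Rises came from the inhibitor genes CDKN2B (0.94 ± 0.06, SE), CDKN2D (0.69 ± 0.06) and CDKN2A (0.17 ± 0.03) and from the kinase gene CDK2 (0.18 ± 0.04). CDKN2A, which encodes p16 and ARF, was abundant in both groups, at 587 ± 3.32 and 659 ± 44.0 CPM (SD, n = 3 per group). CCND2 was not tested, with 2 counts in all libraries together. Exons on the other strand cover 37.1% of CCNE2 and 16.8% of CDK2.

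The partners with which E2F6 forms the Polycomb complex PRC1.6 fell in 6 of 9 tested members and rose in 2 (median log2 fold change -0.31), while E2F6 itself was not called. Of all genes tested, 27.1% fell and 26.3% rose (median 0.00), and no test sets these 9 genes apart from them. L3MBTL2, a methyl-lysine reader of the complex, fell from 26.7 ± 2.61 to 14.3 ± 0.813 CPM (SD, n = 3 per group), which is -0.90 ± 0.09 (SE) in log2 units (edgeR adjusted p = 8.52e-10), with 16.3% of it under exons on the other strand. YAF2 fell by 0.59, WDR5 by 0.51, CBX3 by 0.39, the scaffold gene MGA by 0.31 and its dimer partner MAX by 0.24 on the log2 scale. PCGF6, the subunit that defines the complex, rose by 0.37 ± 0.08 (SE). RNF2, its catalytic ubiquitin ligase, rose by 0.15 ± 0.06 and lost the call in 6 of the 15 alternative fits (highest adjusted p 0.132). RYBP was not called (-0.13 ± 0.06), and the row of RING1 held 0 to 8 counts per library and was not tested.

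The 4 ubiquitin ligase subunits examined that are known to act on E2F proteins fell (median log2 fold change -0.27), in a comparison in which 27.1% of all genes tested fell and 53.4% were called. With 4 genes and no test of the list, nothing particular to it can be read from that count. CDC20, an activator of the anaphase-promoting complex, fell from 161 ± 2.97 to 108 ± 4.33 CPM (SD, n = 3 per group). CCNF, the F-box gene encoding cyclin F, fell by 0.29 and SKP2, the F-box gene whose product binds E2F1, by 0.26 on the log2 scale. FZR1 fell by 0.10, with overlapping groups and a call lost in 6 of the 15 alternative fits (highest adjusted p 0.122). Its product is also called CDH1 and is unrelated to the marker gene CDH1 above.

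E2F target genes of the G1/S transition fell in 16 of 32 members and rose in 6, against 27.1% lower and 26.3% higher among all genes tested (median log2 fold change -0.12, against 0.00 for all genes). The share called was 68.8%, beside 53.4% of all genes tested, and the list was not tested against them. UHRF1, needed to maintain DNA methylation, fell by 0.97, CCNE2 by 0.73, the helicase gene HELLS by 0.70 and MCM5 by 0.58 on the log2 scale. All 6 genes of the MCM2 to MCM7 helicase fell, MCM7 least (log2 fold change -0.16 ± 0.03, SE), and exons on the other strand cover 23.6% of MCM2; apart from MCM5 they were named after their values were seen. Among the rises, the origin recognition gene ORC1 rose by 0.60 ± 0.07 (SE) on the log2 scale, MYBL2 by 0.51 ± 0.03 and the cyclin gene CCNA2 by 0.24 ± 0.04. Widely used E2F targets such as CDC6 (0.05 ± 0.04), RRM2 (0.00 ± 0.04) and MCM10 (0.01 ± 0.07), named after their values were seen, were not called. Exons of another gene on the same strand cover 20.2% of RRM2. RBL1, MYBL2, CCNE1, CCNE2 and CDC25A stand in this list and in another as well.

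**Figure D5:**
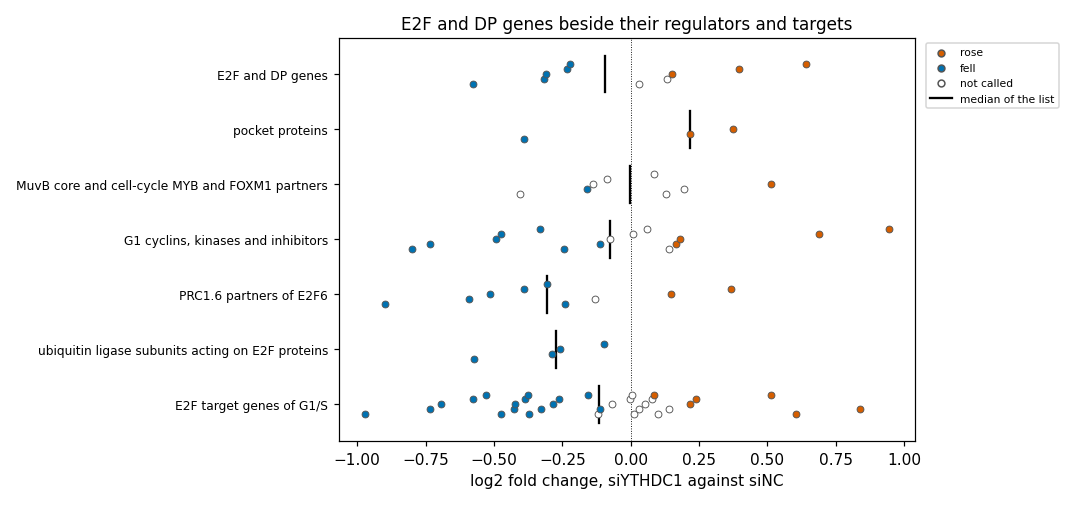
Log2 fold changes of the E2F and DP genes and of 6 lists of their regulators, partners and targets; each point is 1 tested gene (orange, rose; blue, fell; white, not called) and the black bars are list medians. Most lists hold changes of both signs, the 4 ubiquitin ligase subunits being the exception.

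The profiles nearest to the members with the 3 largest called changes were found among 11248 genes averaging 5 CPM or more, by the root-mean-square difference of centred log2 CPM over the 6 libraries. For E2F8 they were CAMK2D (distance 0.0233) and DUSP4 (0.0244), for E2F1 ARHGAP42 (0.0177) and MBD4 (0.0194), and for E2F7 OXSR1 (0.0122). With 2 groups of 3 libraries this measure mainly finds genes with a like fold change.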

How the data were processed

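RNA-seq counts for 6 libraries came as a single deposited table, with whole numbers of reads per Ensembl gene and no scaling visible in the values. Per the submitters' processing notes the genome is hg38, and per the labels' protocols the library kit is directional; aligner, counter and strand setting: not given in the sources used here. Columns were matched to samples by name, 0 columns were left unused, and part of the siYTHDC1 column names is unexplained. Symbols came from an identifier table (61757 genes) and GENCODE release 29 (101 more), which also gave positions and exon lengths.

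Counts of all 6 libraries entered 1 edgeR 4.0.16 quasi-likelihood fit (R 4.3.3) with TMM scaling, the default low-count filter and the group as the only term; p-values were adjusted by Benjamini and Hochberg over 17372 genes. SE is the log2 fold change divided by the square root of F. Alternatives used limma 3.58.1 (voom) and DESeq2 1.42.0. The scripts were tested on simulated data. Members and lists were chosen with earlier results of these data known. Genes named were all 10 members, all genes of the 4 short lists, and the 4 largest called rises and falls of the G1 cyclin and E2F target lists. A few genes that this rule or the marker lists hold are not reported here. Nothing in the labels makes the replicates separate cultures, so the spread behind each p-value may be technical.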

Additional observations from a re-analysis of the deposited data

How the results depend on the processing

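The 3 rises and 5 falls of the E2F and DP genes were the same counts under every alternative run: 3 other scalings, DESeq2, limma-voom, no low-count filter, at least 1 CPM in 3 libraries, the replicate block, leaving out each library, and, added after seeing the data, leaving out the pair of libraries that stand apart in YTHDC1. The number of genes called over the whole table ran from 8145 without that pair to 9308 with no scaling, and was 9227 with the replicate block. No sign that the replicate numbers pair the samples was seen. Deviations of same-numbered libraries correlated at -0.017 to 0.005 across genes, within the -0.018 to 0.024 of all pairs between groups. A pairing that acts on few genes could be missed by this measure, but the block changed no call among the members. The median log2 fold change of all genes was at most 0.0101 under the other scalings.

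Short lists moved by single genes. The fall among pocket proteins (RB1) went from 1 to 0 under upper-quartile scaling, no scaling, DESeq2, limma-voom, both other filters, the replicate block and without the pair, and ran from 0 to 1 when 1 library was left out, while the rises ran from 1 to 2. MuvB rises were 2 under the 3 other scalings, limma-voom, the 1 CPM filter and the replicate block, and ran from 1 to 2 when 1 library was left out, as did the falls. PRC1.6 rises were 1 with no low-count filter and without the pair, and ran from 1 to 2 when 1 library was left out. The YTHDC1 log2 fold change ran from -4.17 without siYTHDC1 replicate 1 to 0.31 without siNC replicate 2. The causes were not tested. Protein levels were not measured, and gene counts do not separate isoforms.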
